A study of Mus musculus with 12 samples.

Results

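The oligoadenylate synthetase (OAS) family of the mouse was followed in CD11c+ lung cells during Pneumocystis infection, through Oas1a, Oas2, Oas3, Oasl1 and Oasl2. These 5 genes were taken by symbol, as the genes with a probe set that carries that single symbol, and they are 5 of the 18193 genes measured. Each rests on 1 probe set, so the gene value and the probe set value are the same. The study placed Pneumocystis, a fungus that grows in the air spaces of the lung, into the trachea of every mouse. Lungs were digested and CD11c+ cells, which are mainly alveolar macrophages and dendritic cells, were taken with magnetic beads. There were 4 groups with 3 mice and 1 array per mouse: IFNAR-/- mice at day 7 of infection, IFNAR-/- mice at day 14, and wildtype mice at the same days. The IFNAR-/- mice are without a working type I interferon receptor. No uninfected mice are among the arrays, every group carries the infection, and the labels used here give neither strain, age nor sex. The question asked is whether type I interferon signalling is set off in these cells and whether it bears on the inflammatory response.

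OAS enzymes bind double-stranded RNA and then join adenosine units into short oligoadenylates. These oligoadenylates act as a second messenger of the antiviral response. Most OAS genes are induced by type I interferons: the receptor drives a transcription factor complex that includes STAT2 and IRF9 to a promoter sequence called the interferon-stimulated response element, and so the transcripts are widely used as a readout of that signal. Oas1a is an active synthetase of the mouse, where the OAS1 gene of other mammals is a cluster of copies. Oas2 and Oas3 are larger enzymes built from repeated synthetase units. Oasl1 carries ubiquitin-like domains, makes no oligoadenylates, and in the mouse holds back translation of Irf7. Oasl2 carries ubiquitin-like domains and is an active synthetase in the mouse.

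The promoter windows below are shown because 2 of the 4 members with a window hold the core of that response element and the others do not. Each runs from 250 bases before to 50 bases after the RefSeq gene start in assembly GRCm38.p6, 5′ to 3′ on the strand of the gene, and capitals mark every match to GAAANNGAAA or its reverse complement TTTCNNTTTC. Oas1a lies on the minus strand at chr5:120907476-120907775, Oas3 on the minus strand at chr5:120777610-120777909, Oasl2 on the plus strand at chr5:114896684-114896983, and the paralog Oas1c on the minus strand at chr5:120812465-120812764.
Oas1a: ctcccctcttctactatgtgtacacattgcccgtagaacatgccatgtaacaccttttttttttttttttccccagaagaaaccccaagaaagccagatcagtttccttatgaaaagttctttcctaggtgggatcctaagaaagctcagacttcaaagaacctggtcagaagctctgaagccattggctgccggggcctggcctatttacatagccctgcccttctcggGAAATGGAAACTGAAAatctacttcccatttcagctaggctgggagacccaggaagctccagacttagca
Oas3: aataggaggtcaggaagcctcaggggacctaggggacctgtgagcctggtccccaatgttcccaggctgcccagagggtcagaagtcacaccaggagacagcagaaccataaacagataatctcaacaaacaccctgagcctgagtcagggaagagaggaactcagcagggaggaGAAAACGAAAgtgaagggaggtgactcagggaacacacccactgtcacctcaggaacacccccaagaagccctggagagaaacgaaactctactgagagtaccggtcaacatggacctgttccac
Oasl2: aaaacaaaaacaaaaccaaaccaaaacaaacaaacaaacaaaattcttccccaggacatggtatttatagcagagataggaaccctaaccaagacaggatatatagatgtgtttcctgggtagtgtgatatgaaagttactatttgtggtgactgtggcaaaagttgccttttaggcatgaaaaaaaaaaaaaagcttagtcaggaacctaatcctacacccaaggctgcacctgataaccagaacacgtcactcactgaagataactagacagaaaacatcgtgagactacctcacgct
Oas1c: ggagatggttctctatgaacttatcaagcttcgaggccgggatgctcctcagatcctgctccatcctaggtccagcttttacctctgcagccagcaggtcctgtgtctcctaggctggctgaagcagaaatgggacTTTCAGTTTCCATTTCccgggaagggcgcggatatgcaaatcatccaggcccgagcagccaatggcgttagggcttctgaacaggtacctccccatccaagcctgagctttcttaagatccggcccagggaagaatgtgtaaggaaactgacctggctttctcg
The Oas1a window holds 2 overlapping cores, GAAATGGAAA starting 20 bases and GAAACTGAAA starting 14 bases before the gene start. The Oas3 window holds 1 core, GAAAACGAAA, starting 75 bases before the start. In the Oas1c window 2 overlapping cores lie on the opposite strand, TTTCAGTTTC and TTTCCATTTC. The windows of Oasl1, on the plus strand at chr5:114922990-114923289, and of Oasl2 hold no match, which says only that these letters are not in these windows. Oas2 was not matched to a window. Among all 32851 promoter windows 1131 (3.44%) hold the core. The core of the interferon gamma-activated site, TTCNNNGAA, is in 8.3% of all windows and in the Oas1a window once, as TTCAAAGAA starting 98 bases before the start. A match is a description of sequence, not a measured binding site.

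Each value is the log2 of a gene's ratio to its own median over the 12 arrays, so a gene can be compared between mice but its level cannot be set against that of another gene. Genotype differences are IFNAR-/- minus wildtype and time differences are day 14 minus day 7, both with the standard error (SE) from one limma model of all 12 arrays, and a call is an adjusted p under 0.05 by Benjamini-Hochberg over all 18193 genes. The log2 ratios of Ifnar1, a gene of the type I interferon receptor, were -0.53, -1.38 and -0.26 in IFNAR-/- and 0.08, 0.64 and 0.07 in wildtype mice at day 7. At day 14 they were 0.10, -1.01 and 0.39 in IFNAR-/- and -0.15, 0.07 and 0.11 in wildtype mice. The genotypes therefore overlapped at day 14. The difference was -0.98 at day 7, -0.19 at day 14 and -0.59 ± 0.25 (SE) over the mean of both days, which did not pass (adjusted p 0.263). The labels used here do not name the altered receptor gene, and which part of the gene is altered is not given in the sources used here. The CD11c gene itself, Itgax, lay between -0.28 and 0.25 on all arrays, while other macrophage and dendritic cell markers differed between genotypes, as given with the markers at the end. Ratios cannot show whether a marker is present or absent. Among the 12 arrays 2 stood apart from the rest. The array of IFNAR-/- day 7 mouse 3 held median log2 ratios of 2.13 for lung epithelial, 2.36 for endothelial and 1.82 for fibroblast markers, and IFNAR-/- day 14 mouse 2 had the widest spread of all arrays, with an interquartile range of 0.581.

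Oas1a was the most evenly separated member. At day 7 its log2 ratio was -1.87, -1.36 and -2.28 in IFNAR-/- mice, against 1.6, 1.80 and 1.59 in wildtype mice. At day 14 the ratio was -0.97, -1.0 and -1.47 in IFNAR-/- mice, against 0.61, 0.55 and 0.77 in wildtype mice. All 6 IFNAR-/- mice were below all 6 wildtype mice, whatever the day. In order of their means the groups were wildtype day 7 (1.66 ± 0.118, SD, n = 3), wildtype day 14 (0.64 ± 0.113), IFNAR-/- day 14 (-1.15 ± 0.283) and IFNAR-/- day 7 (-1.84 ± 0.461), and only the last pair overlapped. Whether this probe set also binds transcripts of the closely related OAS1 copies was not tested.

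Oas3, the largest synthetase, had its high values in a single group. At day 7 it was 0.01, 0.34 and 0.47 in IFNAR-/- mice, against 3.03, 3.72 and 2.51 in wildtype mice. By day 14 it was -1.01, -0.68 and -1.55 in IFNAR-/- mice, against -0.02, -0.07 and -0.08 in wildtype mice. The order of the means was wildtype day 7 (3.09 ± 0.608, SD, n = 3), IFNAR-/- day 7 (0.27 ± 0.241), wildtype day 14 (-0.06 ± 0.033) and IFNAR-/- day 14 (-1.08 ± 0.439), and no neighbours in this order overlapped. For Oas3 the IFNAR-/- cells of day 7 thus stood above the wildtype cells of day 14, the opposite of the order seen for Oas1a.

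Oas2, the synthetase of intermediate size, had log2 ratios of -0.84, -0.64 and 0.25 in IFNAR-/- mice at day 7, against 1.2, 1.63 and 1.10 in wildtype mice. Day 14 values were -0.92, -1.05 and -0.78 in IFNAR-/- mice, against 0.11, 0.12 and -0.15 in wildtype mice. The genotypes did not overlap on either day, but the IFNAR-/- day 7 mice overlapped both day 14 groups. The group means were -0.41 ± 0.579 (SD, n = 3) in IFNAR-/- and 1.31 ± 0.283 in wildtype cells at day 7, and -0.92 ± 0.136 and 0.03 ± 0.155 at day 14.

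The OAS-like genes varied more between mice. Oasl1 was -0.39, 0.17 and 0.68 in IFNAR-/- mice at day 7, against 0.91, 2.73 and 1.13 in wildtype mice. Its day 14 values were -0.99, -1.31 and -1.32 in IFNAR-/- mice, against -0.15, 0.11 and -0.25 in wildtype mice. One wildtype mouse, mouse 2, was well above the other two at day 7, and the IFNAR-/- day 7 mice overlapped the wildtype day 14 mice. Oasl2 was -0.96, -0.74 and 1.73 in IFNAR-/- mice at day 7, against 3.27, 3.86 and 2.55 in wildtype mice. Its day 14 ratios were -0.49, -0.46 and -1.16 in IFNAR-/- mice, against 0.98, 0.10 and -0.14 in wildtype mice. IFNAR-/- day 7 mouse 3 was more than 2 log2 units above the other mice of its group in Oasl2, though still below every wildtype mouse of that day.

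**Figure D1:**
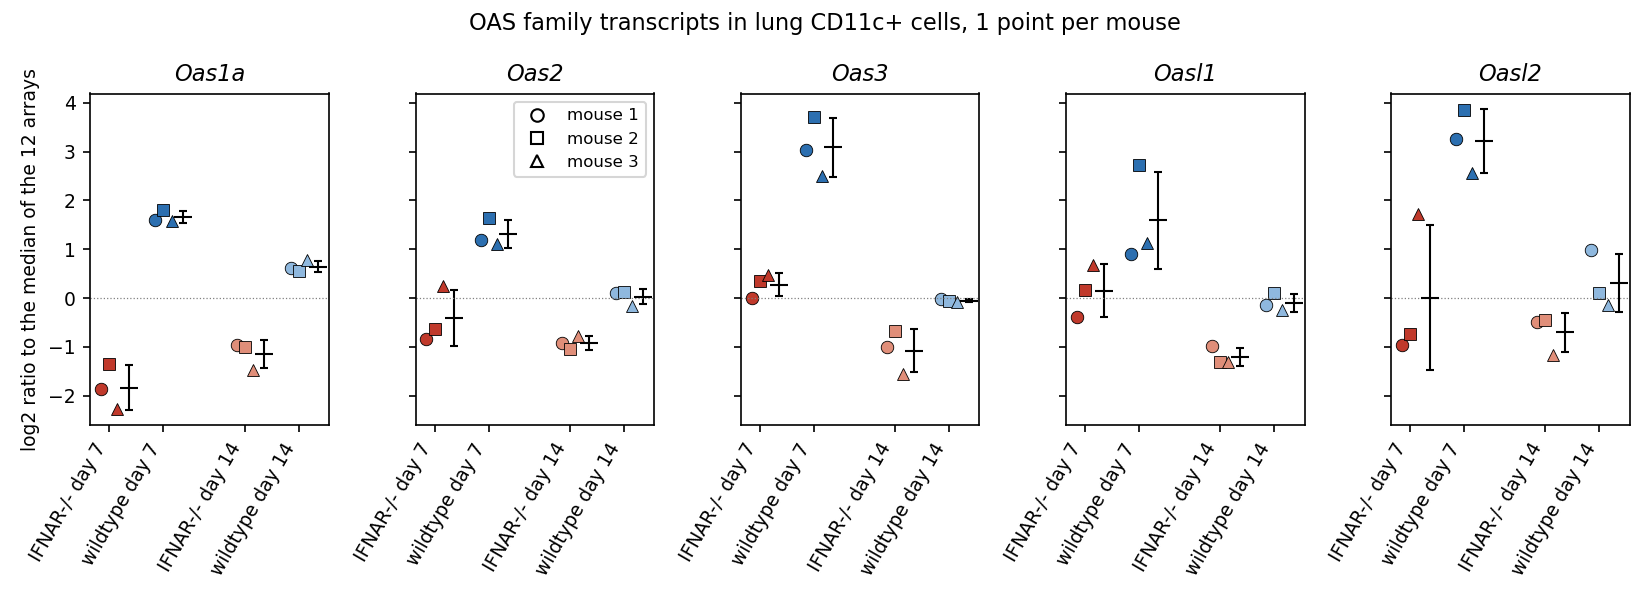
Log2 ratio to the median of the 12 arrays (y axis) of each OAS member by group, with 1 point per mouse and the mean with its SD (n = 3) to the right of the points. In all 5 panels the IFNAR-/- mice lie below the wildtype mice of the same day, and the wildtype day 7 mice are the highest group.

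Some mice were high or low in most members. Averaged over the 5 members, the log2 ratio was -0.81, -0.45 and 0.17 in IFNAR-/- and 2.00, 2.75 and 1.78 in wildtype mice at day 7. At day 14 it was -0.87, -0.90 and -1.26 in IFNAR-/- and 0.31, 0.16 and 0.03 in wildtype mice. Wildtype mouse 2 was the highest of its group at day 7 in all 5 members. IFNAR-/- mouse 3 at day 7 was the highest of its group in 4 members and the lowest in Oas1a, and it is the array high in epithelial, endothelial and fibroblast markers. Whether those cells contributed to its OAS values was not tested.

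At day 7 the OAS transcripts were lower in cells without the receptor. Of the 5 members 4 fell, where 1.35% of all genes were called lower and 1.29% higher. Oas1a differed by -3.50 ± 0.21 (SE), 11.3-fold lower, with an adjusted p of 2.06e-05 in limma, and ranked 6th from the lowest of all 18193 genes. Oas3 differed by -2.81 ± 0.28 (adjusted p 0.000565), and Oas2 by -1.72 ± 0.25 (adjusted p 0.00446). Oasl2 had one of the largest differences and a wide error, -3.22 ± 0.62 (adjusted p 0.0205), 9.32-fold lower. Oasl1 differed by -1.44 ± 0.41, with a 95% interval from -2.33 to -0.54, and did not pass after adjustment (adjusted p 0.102). In all 5 members every IFNAR-/- mouse was below every wildtype mouse, as in 11.6% of all genes. The call of Oasl2 was lost when any 1 of IFNAR-/- mouse 1 or 2 or wildtype mouse 1 or 2 of day 7 was left out (adjusted p 0.0664 to 0.0858), and without IFNAR-/- mouse 3 its difference was -4.08. In sorted cells measured in bulk, fewer cells of a type and less RNA per cell cannot be told apart.

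At day 14 the IFNAR-/- cells were again on the low side, and Oas1a was the 1 member that passed, at -1.79 ± 0.21 (SE), 3.46-fold lower, with an adjusted p of 0.00201 in limma. The count of 1 in 5 compares with 3.29% of all genes called lower and 1.75% higher. Oas2 at -0.94 ± 0.25 (adjusted p 0.0507) and Oas3 at -1.03 ± 0.28 (adjusted p 0.0626) were just outside the threshold. Oasl1 differed by -1.10 ± 0.41 (adjusted p 0.148) and Oasl2 by -1.01 ± 0.62, with a 95% interval from -2.37 to 0.34 (adjusted p 0.388). In all 5 members the genotypes did not overlap, with the IFNAR-/- mice lower, as in 13.3% of all genes. At this day RNA quality moved with genotype: the log2 5′ over 3′ signal of control transcripts was 0.12, 0.06 and 0.16 in IFNAR-/- arrays, against -0.24, -0.18 and -0.91 in wildtype arrays. The poly-A control signal did not overlap either, at 0.15, -1.54 and -0.18 in IFNAR-/- arrays, against -1.86, -1.71 and -3.07 in wildtype arrays. When the 5′ over 3′ signal entered the fit Oas1a was at -1.42 with an adjusted p of 0.0558, and no member was called. Leaving out a day 7 array or IFNAR-/- day 14 mouse 2 could add calls, up to 3 members without wildtype day 7 mouse 2, where Oas3 (adjusted p 0.0308) and Oasl1 (adjusted p 0.0299) passed too.

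Over the mean of both days all 5 members were lower in IFNAR-/- cells, where 2.49% of all genes were called lower and 1.70% higher. The differences were -2.64 ± 0.15 (SE) for Oas1a, -2.12 ± 0.44 for Oasl2, -1.92 ± 0.20 for Oas3, -1.33 ± 0.17 for Oas2 and -1.27 ± 0.29 for Oasl1, with limma adjusted p values of 8.11e-06 for Oas1a and 0.0326 for Oasl1, the lowest and the highest. The genotypes did not overlap on either day in any member, which holds for 2.05% of all genes in this direction. The median difference over the members was -1.92, against 0.00 over all genes. Leaving out 1 array ended the call of Oasl1 in 8 of 12 cases, namely any day 14 array or IFNAR-/- day 7 mouse 1 or 2 (adjusted p 0.052 to 0.0859). The call of Oasl2 was lost without IFNAR-/- day 7 mouse 1, IFNAR-/- day 14 mouse 3, wildtype day 7 mouse 2 or wildtype day 14 mouse 1.

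**Figure D2:**
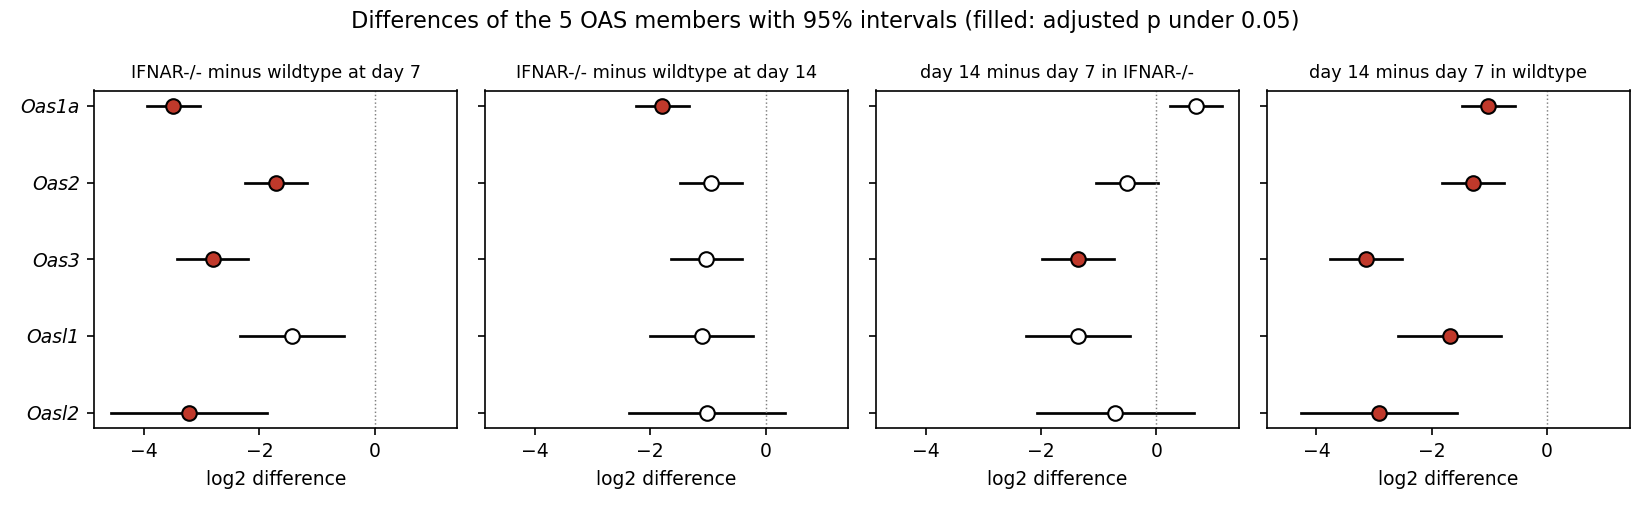
Log2 difference (x axis) of each OAS member with its 95% interval in 4 comparisons, filled where the adjusted p was under 0.05. In all 5 members the point at day 7 lies further from 0 than that at day 14, and in wildtype cells all 5 members lie below 0 from day 7 to day 14, while in IFNAR-/- cells Oas1a lies above 0.

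With time the OAS transcripts dropped in wildtype cells. All 5 members were lower at day 14 than at day 7, where 4.10% of all genes were called lower and 3.88% higher. Oas3 differed by -3.14 ± 0.28 (SE), 8.81-fold lower, with an adjusted p of 0.000319 in limma. Oasl2 differed by -2.91 ± 0.62 (adjusted p 0.017) and Oasl1 by -1.69 ± 0.41 (adjusted p 0.0292). Oas2 differed by -1.28 ± 0.25 (adjusted p 0.0106), and Oas1a changed least, by -1.02 ± 0.21 (adjusted p 0.015). In none of the 5 did day 14 mice overlap day 7 mice, a pattern found in 15.2% of all genes in this direction. The 5′ over 3′ signal was also lower, at -0.24, -0.18 and -0.91 in wildtype day 14 arrays, against 0.08, 0.18 and 0.08 in wildtype day 7 arrays, and with it as a covariate 2 members, Oas1a and Oas3, were called. The poly-A control signal was -1.86, -1.71 and -3.07 in wildtype day 14 arrays, against 0.74, 1.29 and 1.91 in wildtype day 7 arrays. With it as a covariate the calls of Oas1a (adjusted p 0.243) and Oasl1 (adjusted p 0.0815) were lost. The part of either signal in the time difference was not tested further. Leaving out 1 array at a time left between 2 and 5 members called, with Oas2 and Oas3 called each time: Oas1a was lost without mouse 2 of either day, Oasl1 without any wildtype day 14 mouse, and Oasl2 without wildtype day 7 mouse 1 or 2 or wildtype day 14 mouse 2 or 3 (adjusted p 0.0521 to 0.0906).

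In IFNAR-/- cells the members did not move as one. Oas3 was lower at day 14 than at day 7 by -1.35 ± 0.28 (SE), 2.56-fold, with an adjusted p of 0.0114 in limma, and it was the 1 member called, where 8.25% of all genes were called lower and 4.08% higher. Oasl1 differed by -1.36 ± 0.41 (adjusted p 0.0516) with no overlap between the days, Oasl2 by -0.71 ± 0.62 (adjusted p 0.462) and Oas2 by -0.51 ± 0.25 (adjusted p 0.196). Oas1a had the opposite sign, 0.69 ± 0.21, which did not pass (adjusted p 0.0544), and the days overlapped. Without IFNAR-/- day 7 mouse 3 the difference of Oasl2 was 0.15, so its sign rests on that array.

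The genotype difference itself was smaller at day 14 for 2 members by the test of that change, where 1.14% of all genes were called in this direction and 1.34% in the other. For Oas1a the day 14 difference minus the day 7 difference was 1.70 ± 0.30 (SE), with an adjusted p of 0.0181 in limma, and for Oas3 it was 1.79 ± 0.40 (adjusted p 0.0438). Oasl2 had the highest value, 2.21 ± 0.87, and did not pass (adjusted p 0.21), nor did Oas2 at 0.77 ± 0.35 (adjusted p 0.268) or Oasl1 at 0.33 ± 0.58 (adjusted p 0.824). The call of Oas3 was lost when 1 array was left out in 10 of 12 cases, all but wildtype day 7 mouse 3 and IFNAR-/- day 14 mouse 3, and that of Oas1a in none. Both calls were lost with the 5′ over 3′ or the poly-A control signal as a covariate. Without IFNAR-/- day 7 mouse 3 Oas2 (adjusted p 0.0393) and Oasl2 (adjusted p 0.0221) passed. The comparisons of genotype and of time share arrays, so their values are not independent of each other.

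Few of the other OAS1 copies of the same cluster passed. Of 7 listed copies 5 were measured, Oas1b, Oas1c, Oas1e, Oas1f and Oas1h, and 0 passed at day 7 or at day 14 by limma, with 1 at an unadjusted p under 0.05 on each day and median differences of -0.20 and -0.10. Oas1c passed over the mean of both days, at -0.62 ± 0.12 (SE, adjusted p 0.0177 in limma). Its log2 ratio at day 7 was -0.15, 0.05 and 0.27 in IFNAR-/- mice and 0.59, 0.89 and 0.75 in wildtype mice. At day 14 it was -0.54, -0.54 and -0.31 in IFNAR-/- mice and 0.47, -0.13 and -0.08 in wildtype mice. Oas1c is thus the 1 measured copy whose genotypes did not overlap on either day with IFNAR-/- mice lower, as in 2.05% of all genes. Its promoter window, printed above, holds the core on the opposite strand.

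The measured genes that act around the product of the synthetases did not pass in any comparison by limma, with 2 at an unadjusted p under 0.05 at day 14 and 0 at day 7. They are Abce1, an ATP-binding protein that also takes part in ribosome recycling, and Pde12 and Akap7, which can degrade oligoadenylates, and 3 of the 5 listed genes were measured. Abce1 differed by 0.32 at day 7 and -0.15 at day 14, Akap7 by -0.21 and -0.55, and Pde12 by 0.06 and -0.49. Differences of this size can be missed. In simulated day 7 data the fit found 18% of changes of 0.5 and 76% of changes of 1 on the log2 scale. Day 14 was not simulated, so these shares do not carry over to it.

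Among other sensors of double-stranded RNA 4 of 8 fell at day 7, where 1.35% of all genes were called lower. At day 14 by limma 0 passed, and 0 had an unadjusted p under 0.05. Zbp1, a sensor of Z-form nucleic acid, differed by -2.35 ± 0.33 (SE, adjusted p 0.00446) at day 7 and by -0.04 ± 0.33 (adjusted p 0.969) at day 14. Eif2ak2, the kinase PKR that halts translation, differed by -1.47 ± 0.21 (adjusted p 0.00446) and by 0.27 ± 0.21 (adjusted p 0.499). Dhx58 and Ddx58, of the RIG-I family, fell by 1.17 and 0.72 on the log2 scale at day 7. The change of the genotype difference passed for Zbp1 (2.31), Eif2ak2 (1.74) and Dhx58 (1.37), where 1.14% of all genes were called in this direction. None of the 8 was lower without overlap on both days, against 5 of 5 OAS members and 2.05% of all genes. Ifih1, the sensor MDA5, differed by -0.62 ± 0.15 at day 7 (adjusted p 0.0527), and its differences with time, -1.07 in IFNAR-/- and -1.5 in wildtype cells, were both called. In all, 4 of the 8 were called lower at day 14 than at day 7 in IFNAR-/- and 6 in wildtype cells. Over all genes the shares were 8.25% in IFNAR-/- and 4.10% in wildtype cells. Tlr3, the endosomal sensor, was called lower in both genotypes, at -0.79 (adjusted p 0.0364) in IFNAR-/- and -1.66 (adjusted p 0.00177) in wildtype cells. Mavs, the adaptor of the RIG-I family, ran the other way between genotypes at day 7, with 1.22, 1.3 and 1.12 in IFNAR-/- mice against 0.25, -0.03 and 0.86 in wildtype mice. These groups did not overlap, but the difference of 0.85 ± 0.29 did not pass (adjusted p 0.184 in limma). Mavs was lower at day 14 than at day 7 in IFNAR-/- cells, at -1.83 ± 0.29 (adjusted p 0.00344).

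Of the genes that carry the interferon signal to the OAS promoters, 11 of 12 were measured. The interferon gene Ifnb1 was higher in IFNAR-/- cells at day 7, where its log2 ratio was 2.44, 3.65 and 2.09, against -0.38, -0.33 and -0.22 in wildtype cells. At day 14 it was -0.20, 0.31 and -0.08 in IFNAR-/- cells and -0.55, 0.04 and 0.20 in wildtype cells. The difference was 3.03 ± 0.34 (SE, adjusted p 0.000908 in limma) at day 7 and 0.11 ± 0.34 (adjusted p 0.897) at day 14, so at day 7 the ligand gene was high in the mice in which the OAS transcripts were low. Irf7, the transcription factor that amplifies interferon genes, followed the OAS pattern instead. It was -0.08, 0.11 and 1.23 in IFNAR-/- mice at day 7, against 2.80, 3.65 and 2.6 in wildtype mice. Its difference was -2.59 ± 0.36 (adjusted p 0.00433) at day 7 and -0.88 ± 0.36 (adjusted p 0.195) at day 14. Irf9, the DNA-binding part of the complex that acts on the response element, fell by 0.98 on the log2 scale at day 7 (adjusted p 0.0149). Stat2 differed by -1.21 ± 0.33 at day 7 (adjusted p 0.0879). From day 7 to day 14 Ifnb1 changed by -2.71 ± 0.34 (adjusted p 0.00116) in IFNAR-/- and by 0.21 ± 0.34 (adjusted p 0.787) in wildtype cells, and Irf7 by -1.40 ± 0.36 (adjusted p 0.0298) in IFNAR-/- and -3.12 ± 0.36 (adjusted p 0.00114) in wildtype cells.

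Among other interferon-stimulated genes 7 of 13 fell at day 7 and 3 at day 14, where 1.35% and 3.29% of all genes were called lower. The median differences were -1.54 and -0.60, against -2.81 and -1.03 for the OAS members. Ifi27l2a, a strongly interferon-induced gene, differed by -3.61 at day 7 and -2.10 at day 14 and was called on both days, as was Usp18, which removes ISG15 from proteins and dampens receptor signalling, at -2.44 and -1.62. The others called lower at day 7 were Ifit2 at -2.35, Bst2 at -1.38, Mx2 at -0.78, Ifi35 at -0.74 and Mx1. Over the mean of both days 10 of the 13 were called lower, Rsad2 at -1.45 and Cmpk2 at -1.19 among them, against 2.49% of all genes. Others had another pattern. Mx1, an antiviral GTPase, differed by -2.94 ± 0.30 (SE) at day 7 and by 0.08 ± 0.30 at day 14 (adjusted p 0.922 in limma), and Ifit1, which binds foreign RNA ends, by -0.84 ± 0.44 (adjusted p 0.474) and -2.04 ± 0.44 (adjusted p 0.0266). Without overlap on both days 5 of the 13 were lower, against 2.05% of all genes. With time 3 of the 13 were lower and 1 higher at day 14 in IFNAR-/- cells, the higher one being Mx1 at 1.32 ± 0.30 (adjusted p 0.0163), and 9 were lower in wildtype cells. Over all genes 8.25% were called lower and 4.08% higher in IFNAR-/- cells, and 4.10% lower in wildtype cells. The 3 lower in IFNAR-/- cells were Ifit1 at -3.29, Rsad2 at -2.77 and Ifit3 at -2.60, and in wildtype cells Ifit3 had the largest difference of the list, -3.88 ± 0.58 (adjusted p 0.00365).

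**Figure D3:**
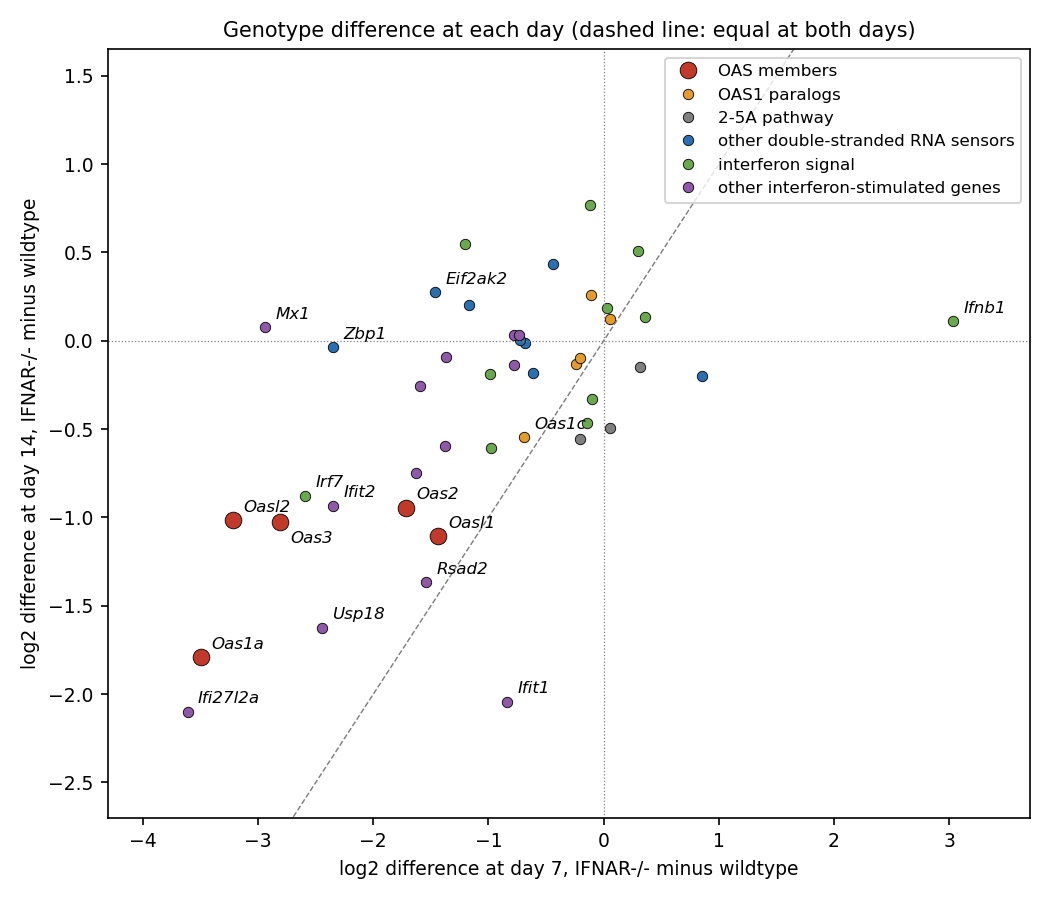
Log2 genotype difference at day 7 (x axis) against day 14 (y axis), IFNAR-/- minus wildtype, for the OAS members and the genes of the 5 other lists, 1 point per gene, with the dashed line where both are equal. The 5 OAS members lie below 0 on both axes, Mx1, Zbp1 and Eif2ak2 lie near 0 or above at day 14, and Ifnb1 lies far to the right.

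A few genes around the OAS loci were called, and not in every comparison. The members lie in 2 loci of mouse chromosome 5, Oasl1 with Oasl2, and Oas1a with Oas2, Oas3 and the OAS1 copies. Of the 20 nearest measured genes around the Oasl locus 1 was lower at day 7, 2610524H06Rik at -0.94 (adjusted p 0.0284 in limma), and around the other locus 0 passed by limma. An unadjusted p under 0.05 was found at day 7 in 4 genes around the Oasl locus and in 3 around the other. The median differences were 0.10 and -0.08. At day 14 there was 1 lower gene around each, 1500011B03Rik at -0.61 and Erp29 at -0.65. Over all genes 1.35% were called lower at day 7 and 3.29% at day 14. Over the mean of both days 2 of the 20 genes were lower and 1 higher around the Oasl locus. Around the other locus 0 passed by limma in that comparison, where 2.49% of all genes were called lower and 1.70% higher.

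The 8 genes whose log2 ratios over the 12 arrays came closest to the mean profile of the members were Rtp4, Phf11d, Cmpk2, Ifi213, Irf7, Sp100, Ddx60 and Ifi209. Likeness was the root mean square log2 difference after centring each gene on its mean, which was 0.192 for Rtp4, a chaperone of receptor transport that interferon induces, and 0.591 for Ifi209, the last of the 8, against a median of 1.26 over all genes. The members themselves ranged from 0.411 for Oas2 to 0.811 for Oas1a, so several of these genes tracked the family mean more closely than some of its members. They were picked for this pattern, so their differences between the groups were not tested for support.

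**Figure D4:**
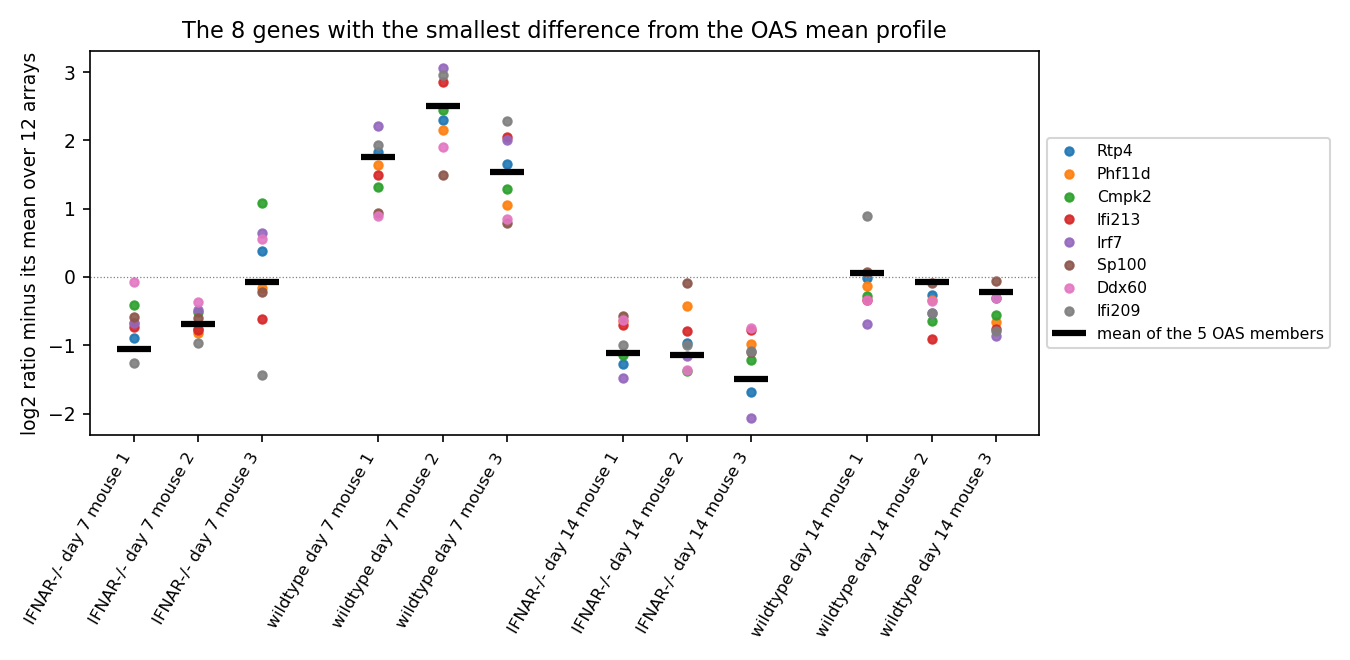
Log2 ratio minus its mean over the 12 arrays (y axis) in each mouse (x axis) for the 8 genes most like the OAS mean, 1 point per gene, with the mean of the 5 OAS members as a black bar. The points are highest in the wildtype day 7 mice and lie mostly below 0 in the IFNAR-/- mice.

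Markers of the sorted cells themselves moved with genotype. Of 13 macrophage and dendritic cell markers 5 were called lower at day 7, where 1.35% of all genes were called lower. All 5 are linked to dendritic cells: Ccr7 at -1.29, Batf3 at -1.14, Itgae at -1.08, H2-Ab1 at -0.97 and Flt3 at -0.75. In each of the 5 the genotypes did not overlap, as for Ccr7, which ranged from -0.64 to -0.51 in IFNAR-/- and from 0.64 to 0.77 in wildtype mice. Of all genes 11.6% were lower without overlap at day 7. The alveolar macrophage markers Marco, Siglecf and Fabp4 were higher without overlap at day 7 and did not pass. The share of all genes higher without overlap was not counted on either day. Marco lay between 2.06 and 2.21 in IFNAR-/- and between -0.95 and 1.10 in wildtype mice. The genotypes overlapped at day 7 in the macrophage markers Mrc1, Car4 and Pparg, and in Zbtb46 and Itgax. Car4 leaned lower, from -0.03 to 0.16 in IFNAR-/- and from 0.00 to 0.99 in wildtype mice. At day 14 Marco (3.59) and Ccr7 (0.78) were called higher in IFNAR-/- cells, where the OAS members were on the low side. Over all genes 1.75% were called higher at that day. Car4, Itgae, H2-Ab1 and Itgax were also higher without overlap at day 14. Mrc1 and Batf3 were lower without overlap, and none of these markers passed. Of all genes 13.3% were lower without overlap at day 14. With time in wildtype cells 5 of the 13 were called lower and 1, Batf3, higher, where 4.10% of all genes were called lower and 3.88% higher. With time in IFNAR-/- cells 3 of the 13 were called lower and 5 higher. Over all genes 8.25% were called lower and 4.08% higher in that comparison. The part of this make-up in the OAS differences was not tested.

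Markers of other cells that a CD11c+ sort could hold moved with some of these groups. The median log2 ratio of 6 of 6 listed plasmacytoid dendritic cell markers ranged over the arrays from -0.45 to -0.21 in IFNAR-/- and from 0.16 to 0.73 in wildtype mice at day 7, and from -0.23 to 0.05 in IFNAR-/- and from 0.16 to 0.33 in wildtype mice at day 14. Without Bst2, which is itself induced by interferon, 5 markers ranged from -0.42 to -0.07 in IFNAR-/- and from 0.09 to 0.73 in wildtype mice at day 7. The 5 measured of 6 monocyte markers ranged from -0.96 to -0.11 in IFNAR-/- and from 0.03 to 0.07 in wildtype mice at day 7, and overlapped at day 14. The 7 measured of 8 T cell markers were lower at day 7, with -0.66 to -0.25 in IFNAR-/- and -0.08 to 0.42 in wildtype mice, and higher at day 14, with 0.38 to 0.92 in IFNAR-/- and -0.45 to 0.02 in wildtype mice, where the OAS members were lower on both days. The 5 measured of 6 NK cell markers had the same turn, from -0.29 to -0.15 in IFNAR-/- and 0.05 to 0.48 in wildtype mice at day 7, and from 0.02 to 0.56 in IFNAR-/- and -0.38 to -0.06 in wildtype mice at day 14. At day 14 markers of 4 more lists did not overlap and were higher in IFNAR-/- mice. Those of lung epithelium ranged from -0.16 to 0.22 in IFNAR-/- and from -0.64 to -0.54 in wildtype mice, those of fibroblasts from -0.11 to 0.07 in IFNAR-/- and from -0.42 to -0.25 in wildtype mice, and those of neutrophils from 0.05 to 0.36 in IFNAR-/- and from -0.64 to -0.09 in wildtype mice. The B cell markers were apart by little, from 0.13 to 0.63 in IFNAR-/- and from -0.15 to 0.128 in wildtype mice. With time in wildtype mice the epithelial markers were at -0.54, -0.60 and -0.64 at day 14, against 1.01, 0.31 and -0.18 at day 7, without overlap, beside the lower OAS values. Fibroblast markers were also lower without overlap, from -0.42 to -0.25 at day 14 against -0.10 to 0.60 at day 7. So were NK cell markers, from -0.38 to -0.06 against 0.05 to 0.48. The median of the 13 macrophage and dendritic cell markers was lower too, from -0.65 to -0.10 against -0.06 to 0.64. The other lists overlapped between the days in wildtype mice. In IFNAR-/- mice T cell markers were higher without overlap with time, from 0.38 to 0.92 at day 14 against -0.66 to -0.25 at day 7. Monocyte and NK cell markers were also higher without overlap. Endothelial markers were lower without overlap, from -0.47 to -0.05 at day 14 against 0.04 to 2.36 at day 7. The remaining lists overlapped between the days in IFNAR-/- mice. The part of these cell types in the OAS differences was not tested.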

How the data were processed

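RNA of pulmonary CD11c+ cells was hybridised to 12 Affymetrix mouse arrays, 3 mice per group. Per the submitters' processing notes RMA was used, with no version. The deposited value is a linear ratio, read from the values as the authors' signal over about that probe set's own median of the 12 arrays; this division is not stated. Signal over background is lost, so dim probe sets could not be filtered, and precision is limited by how many arrays there are. The plan had been to keep the brightest probe set per gene, which ratios do not allow, so all probe sets were averaged.

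The table holds 45101 probe sets, of which 34945 carry 1 gene symbol, and their log2 ratios were averaged per gene. Groups were compared in limma 3.58.1 (R 4.3.3) with 1 mean per group, two-sided, with Benjamini-Hochberg adjustment over 18193 genes and 0.05 as the threshold. The fit had 8 residual degrees of freedom and a prior of 3.21. Per the labels the mice of a group are separate animals.

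The members and gene lists were chosen with earlier results of these data known. Genes were named by a rule: the 5 members, list genes that passed or have a central role, the 10 measured genes on each side of each locus, and the 8 genes most like the members. Ifih1, Stat2, Ifit1, Mx1 and the ligand Ifnb1 are named for their role or for passing in at least 1 comparison. Gene positions and promoters come from RefSeq (GRCm38.p6). On data simulated for 18193 genes the day 7 test called 18%, 76%, 94% and 98% of genes changed by 0.5, 1, 2 and 3 log2 units, with 10 false calls. Alternatives covered normalization, probe set choice, a filter, the variance prior, array weights, the mouse number, the 5′ over 3′ and poly-A control signals as covariates, and left-out arrays.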

Additional observations from a re-analysis of the deposited data

Results flagged for a closer look

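For 2 members the genotype difference at day 14 differed from that at day 7 by a test of the change itself. For Oas1a the change was 1.70, from differences of -1.79 at day 14 and -3.50 at day 7. For Oas3 it was 1.79, from differences of -1.03 at day 14 and -2.81 at day 7. Both remained negative on both days. With the deposited values normalised by quantiles again the changes were 1.02 for Oas1a and 1.15 for Oas3, and neither passed (limma adjusted p 0.263 and 0.341).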

How the results depend on the processing

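Of 740 differences of single members recomputed under an alternative, 642 kept direction and side of the threshold, 58 lost and 37 gained a call, and 3 reversed. Some alternatives could not change a difference, so the number kept is no measure of robustness. Each member has 1 probe set, so probe set choice left its difference as it was. Leaving out an array outside a comparison did the same. In these cases the SE, the p and the adjusted p could still move. Causes were not tested except where the alternative tests fewer genes or arrays. The numbers of called members were 4 at day 7, 1 at day 14, 5 over both days, 5 with time in wildtype, 1 with time in IFNAR-/- cells and 2 for the change of the genotype difference. At day 14 the count was 2 with the probe set of largest standard deviation or a trended robust prior, 3 with genes above the median standard deviation, array weights, only the arrays compared, or without both arrays that stood apart, and 0 with the 5′ over 3′ covariate. At day 7 it was 2 with only the arrays compared. With time in IFNAR-/- cells it was 3 with genes above the median standard deviation, and 2 with quantile normalization, array weights, only the arrays compared, or the 5′ over 3′ or poly-A covariate. These counts pool both directions. The member gained with array weights or either covariate was Oas1a, which was higher at day 14. With quantile normalization or only the arrays compared it was Oasl1, which was lower. The filter on standard deviation added both. With time in wildtype cells it was 2 with the 5′ over 3′ and 3 with the poly-A covariate. For the change of the difference it was 0 with quantile normalization or the 5′ over 3′ covariate, 1 with the trended prior or the poly-A covariate, and 4 with array weights. That 1 member was Oas1a with the trended prior. With the poly-A covariate it was Oasl2 (limma adjusted p 0.0457), while Oas1a and Oas3 were lost. Leaving out 1 array gave 3 to 4 at day 7, 1 to 3 at day 14, 3 to 5 over both days, 2 to 5 and 1 to 2 with time in wildtype and in IFNAR-/- cells, and 1 to 3 for the change. Oasl2 with time in IFNAR-/- cells reversed to 0.029 without both arrays that stood apart and ranged from -1.19 to 0.15 with 1 array left out, positive without IFNAR-/- day 7 mouse 3. The change of Oasl1 ranged from -0.24 to 0.67, negative without wildtype day 7 mouse 2.

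With the mouse number as a replicate block 2 members were called with time in IFNAR-/- cells, and no other count of members moved. The member gained was Oas1a, higher at day 14 by 0.69 with a limma adjusted p of 0.0485. With each group's mean subtracted, same-numbered mice of different groups correlated between -0.397 and 0.232, with 3 of 18 pairs over 0.1. Differently numbered mice were not compared, so these values cannot tell whether the numbers pair the samples. The number of genes called over all genes ranged from 210 to 1882 at day 7 and from 37 to 1899 at day 14, with the highest under array weights. A fit of only the arrays compared could not be run where all arrays are compared.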
